A study of Yarrowia lipolytica with 12 samples.

Results

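Transcriptomes of the Yl*ngs1*Δ and Yl*rep1*Δ deletion strains of the dimorphic yeast *Yarrowia lipolytica* were compared directly, with 3 RNA-Seq libraries of each, 6 of the 12 libraries of the series. The libraries were chosen by their sample labels, and all genes were kept: 6400 were listed and 6016 passed a filter on low counts. Both strains were made by homologous recombination in PO1a (*MATA leu2-270 ura3-302*). Both carried the 4NAG plasmid, a centromeric *YlLEU2* vector with the GlcNAc genes Yl*NAG1*, Yl*DAC1*, Yl*NAG5* and Yl*NGT1* under the Yl*ACT1* promoter, and were grown in *N*-acetylglucosamine (GlcNAc) liquid medium to an OD600 of about 0.8. The other 6 libraries were of wild-type PO1a cells, 3 with the same plasmid and 3 with the empty vector, and are given here only as background. Whether the 3 samples of a strain were separate cultures is not stated, and p-values therefore cover the spread among these samples alone, which may be technical.

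GlcNAc is an amino sugar of chitin and of cell surface glycans, and many fungi use it as a carbon source and sense it as a signal. In *Candida albicans*, Ngs1 is an *N*-acetyltransferase that binds GlcNAc, and Rep1 is a DNA-binding protein of the Ndt80 family that brings Ngs1 to the promoters of GlcNAc catabolic genes. *Y. lipolytica* grows as oval yeast cells or as filaments, and Mhy1 and Hoy1 are needed for the change to filaments. The direct contrast asks whether loss of the sensor and loss of the transcription factor leave different transcriptomes. No sequence is printed, because no sequence table for these gene identifiers was used here.

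No gene was called different between the strains. Of 6016 genes tested with edgeR's quasi-likelihood test, 0 were higher and 0 were lower in Yl*ngs1*Δ once p was adjusted by Benjamini-Hochberg (under 0.05) and a 2-fold difference required, a background of 0% in each direction. The count was also 0 with no fold threshold, and the smallest adjusted p of any gene was 0.99974. DESeq2 and limma with sample quality weights called 0 genes as well. At an unadjusted p under 0.05, 71 genes passed (1.18% of those tested), of which 38 were higher (0.632%) and 33 lower (0.549%) in Yl*ngs1*Δ. With at least a 2-fold change as well, 15 genes were higher (0.249%) and 13 were lower (0.216%). None of these passed correction, so each is given below as a value and not as a change.

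**Figure D1:**
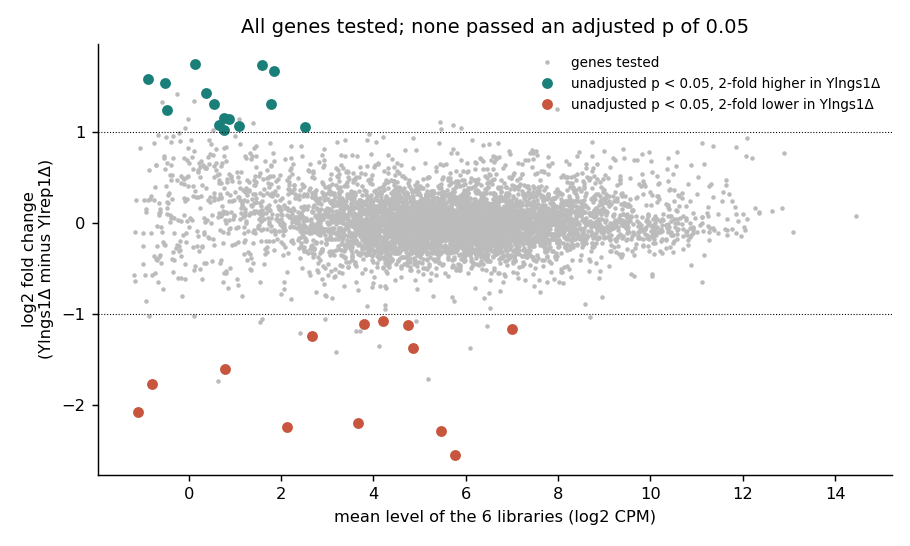
Each of the 6016 genes tested by its mean level over the 6 libraries (x axis, log2 CPM) and its fitted difference (y axis, log2 fold change, Yl*ngs1*Δ minus Yl*rep1*Δ). The 15 green and 13 red points passed an unadjusted p of 0.05 and 2-fold (dotted lines), and 0 passed an adjusted p of 0.05.

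The intervals show which differences could still be present. The median standard error was 0.24 on the log2 scale. For 4434 of the 6016 genes (73.7%) the 95% interval of the difference lay wholly within 2-fold in either direction, and for the rest a difference of 2-fold or more was not excluded by its own interval. Among the 1504 genes with the lowest levels this share was 50.5%, against 82.0%, 83.8% and 78.5% in the next 3 sets of 1504 by rising level. The fitted difference was above 0 for 51.1% of genes, and its median over all genes was 0.01.

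The deleted genes were read in each library first, because they check the labels. Levels are CPM, counts scaled to a common library size by edgeR, after TMM scaling over the 12 libraries. Yl*REP1* (YALI0D24860) stood at 21.7, 11.3 and 68.8 CPM in replicates 1, 2 and 3 of the libraries labelled Yl*rep1*Δ, at 66.5, 69.5 and 78.8 CPM in Yl*ngs1*Δ, and between 77.2 and 90.9 CPM in the wild type carrying 4NAG. Yl*rep1*Δ replicates 1 and 2 held 383 and 278 reads of the gene, 26.1% (95% exact Poisson interval 23.5 to 28.8, counting error only) and 13.5% (12.0 to 15.2) of the wild-type mean. Replicate 3 lay within the range of Yl*ngs1*Δ, at 82.6% (77.8 to 87.6). The groups overlapped, and the fitted difference of 1.08 (log2, SE 0.60) had an unadjusted p of 0.11 and an adjusted p of 0.9997 in edgeR. Without Yl*rep1*Δ replicate 3 the difference was 2.12.

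Yl*NGS1* (YALI0E20185), the gene deleted in the other strain, stood at 0.0517, 16.6 and 34.5 CPM in replicates 1, 2 and 3 labelled as its deletion. Levels were 46.1, 50.6 and 69.9 CPM in Yl*rep1*Δ and between 71.5 and 74.4 CPM in the wild type carrying 4NAG. Replicate 1 of Yl*ngs1*Δ held 1 read of the gene, whereas replicates 2 and 3 held 277 and 560 reads, which is 22.7% (20.1 to 25.5) and 47.1% (43.3 to 51.2) of the wild-type mean. The groups did not overlap, a pattern that 338 genes showed (5.62% of those tested, 3.06% with Yl*ngs1*Δ higher and 2.56% with it lower). The fitted difference was -1.72 (log2, SE 1.19, interval -4.52 to 1.09), with an unadjusted p of 0.19 and an adjusted p of 0.9997 in edgeR. Yl*ngs1*Δ replicate 1 was thus the library in which the deleted gene was close to absent. Counts of Yl*REP1* went against the label in Yl*rep1*Δ replicate 3 and in part in the other 2 Yl*rep1*Δ libraries. Those of Yl*NGS1* did so in part in Yl*ngs1*Δ replicates 2 and 3. Every direction below is between libraries as labelled.

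**Figure D2:**
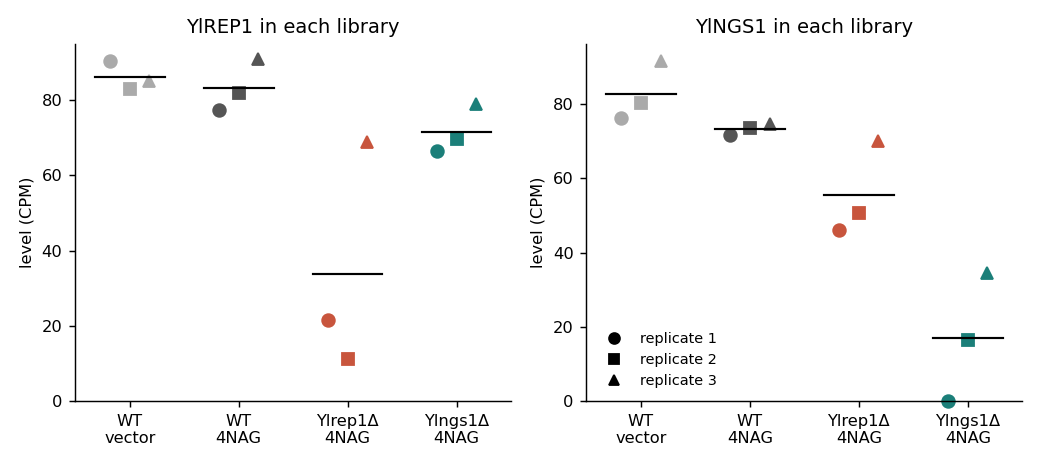
Level (y axis, CPM) of Yl*REP1* and Yl*NGS1* in each of the 12 libraries, by group (x axis). Symbols mark the replicate and the line is the mean of 3. Yl*rep1*Δ replicate 3 reaches 68.8 CPM of Yl*REP1*, beside 66.5 to 78.8 CPM in Yl*ngs1*Δ.

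Yl*NDT80* (YALI0B14773), the other Ndt80 family gene, differed by less than 2-fold between the strains. It stood at 14.5, 14.8 and 13.4 CPM in Yl*ngs1*Δ and at 14.0, 11.8 and 11.4 CPM in Yl*rep1*Δ. The difference was 0.20 (log2, interval -0.22 to 0.62), so a 2-fold difference lay outside the interval. Per length, in the deposited FPKM values, its level in the 6 libraries was between 7.41 and 9.95, against 44.5 to 48.7 for Yl*REP1* in Yl*ngs1*Δ.

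For each of the 3 GlcNAc genes read here the groups overlapped. The plasmid genes Yl*NGT1* and Yl*NAG1* were not among them. Yl*GIG1* (YALI0F04466), similar to a *C. albicans* gene induced by GlcNAc, stood at 9.42, 60.0 and 96.6 CPM in Yl*ngs1*Δ and at 83.5, 51.4 and 228.3 CPM in Yl*rep1*Δ. Its lowest library was the Yl*ngs1*Δ replicate with 1 Yl*NGS1* read and its highest was Yl*rep1*Δ replicate 3, and the groups overlapped (difference -1.13, interval -3.12 to 0.85). In wild-type cells with 4NAG it stood between 256.2 and 272.6 CPM. Yl*DAC1* (YALI0E20163), the GlcNAc-6-phosphate deacetylase, stood at 580.1, 648.8 and 680.5 CPM in Yl*ngs1*Δ and at 641.0, 802.6 and 1416 CPM in Yl*rep1*Δ. Here too Yl*rep1*Δ replicate 3 stood apart, within the wild-type range of 1277 to 1429 CPM. Without it the difference moved from -0.59 to -0.18. Yl*NAG5* (YALI0E20207), the GlcNAc kinase, stood between 1236 and 1631 CPM in Yl*ngs1*Δ and between 1186 and 1534 CPM in Yl*rep1*Δ, with a difference of 0.08 (interval -0.38 to 0.54). For both genes the counts combine plasmid and chromosomal copies, and in the files Yl*DAC1*, Yl*NGS1* and Yl*NAG5* carry consecutive identifiers.

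Libraries of a strain differed widely among themselves. The median SD of log2 CPM was 0.27 for libraries of Yl*ngs1*Δ and 0.28 for those of Yl*rep1*Δ, and it was larger in Yl*rep1*Δ for 48.7% of genes. Within Yl*ngs1*Δ, 1092 genes spanned at least 2-fold between the lowest and the highest library, within Yl*rep1*Δ 1085 did, and 644 did in both. The strain accounted for 15.3% of the summed squares over all genes while holding 1 of 5 degrees of freedom. With 3 against 3 libraries, an exact two-sided permutation test of 1 gene could not go below p = 0.10.

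Libraries resembled partners across the strains. The pair with the smallest root mean square difference was Yl*ngs1*Δ replicate 2 with Yl*rep1*Δ replicate 1 (0.30 log2, r = 0.992 over 6016 genes). Next came Yl*ngs1*Δ replicate 1 with Yl*rep1*Δ replicate 2 (0.33, r = 0.990) and Yl*ngs1*Δ replicate 3 with Yl*rep1*Δ replicate 1 (0.35, r = 0.989). All 3 were closer than the closest pair within a strain, Yl*ngs1*Δ replicates 2 and 3 (0.37, r = 0.988). The pairs within Yl*rep1*Δ lay between 0.61 and 0.69, and Yl*ngs1*Δ replicates 1 and 3 were the farthest apart of all 15 pairs, at 0.81. Yl*rep1*Δ replicate 3 lay between 0.61 and 0.77 from the other libraries. These correlations are descriptions across genes, which are not independent, and they share the gene levels common to all cells. No pair was a duplicate: the chi-square per degree of freedom between libraries was 17.8 or more. The part of library handling or of the strains in this pattern was not tested.

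**Figure D3:**
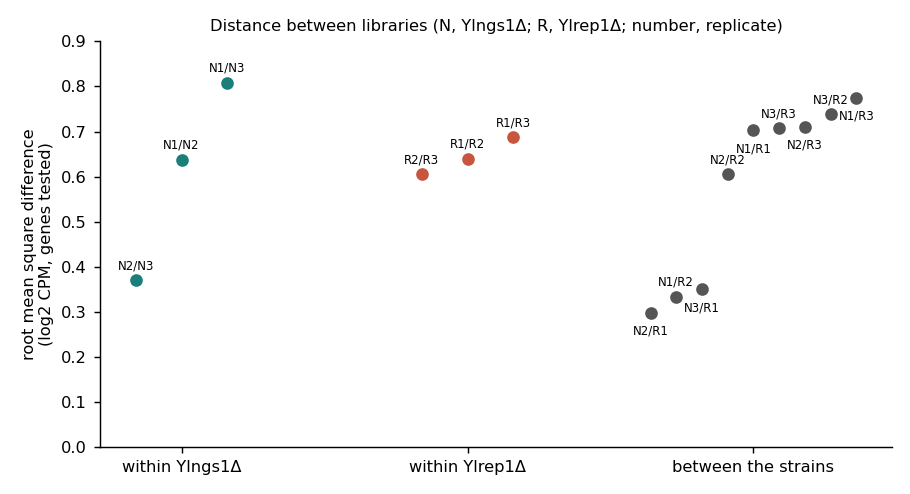
Root mean square difference in log2 CPM over 6016 genes (y axis) for each of the 15 pairs of libraries, by whether the pair is within a strain or between strains (x axis). The 3 lowest points, at 0.30, 0.33 and 0.35, are pairs between strains.

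Total counts lay between 15667204 and 22321047 per mutant library, and Yl*rep1*Δ replicate 3 had the fewest. As these are bulk samples, fewer cells of one kind (yeast or filament) and less RNA per cell cannot be told apart.

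*MHY1* and *HOY1*, both needed for filaments, overlapped between the strains. *MHY1* (YALI0B21582), a zinc finger factor required for the dimorphic transition, stood at 522.3, 223.9 and 147.5 CPM in Yl*ngs1*Δ and at 166.8, 413.8 and 136.0 CPM in Yl*rep1*Δ. Its 2 highest libraries were Yl*ngs1*Δ replicate 1 and Yl*rep1*Δ replicate 2, the members of a close pair, and all 6 lay above the wild-type range of 52.1 to 58.1 CPM. The difference between strains was 0.32 (log2, interval -1.06 to 1.70). *HOY1* (YALI0A18469), a gene whose loss blocks the yeast-hypha transition, stood at 57.4, 122.4 and 120.1 CPM in Yl*ngs1*Δ and at 94.6, 50.1 and 53.9 CPM in Yl*rep1*Δ. The library order was reversed from *MHY1* in that Yl*ngs1*Δ replicate 1 and Yl*rep1*Δ replicate 2 were now low. The difference was 0.59 (interval -0.27 to 1.45). Both genes were singled out after their values were seen.

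The transcription factors that the study lists as higher in both mutants than in wild type were mostly higher in Yl*ngs1*Δ than in Yl*rep1*Δ by fitted value, but 0 of 14 were called. The fitted difference was above 0 for 13 of 14, against 51.1% of all genes, with a median of 0.38 against 0.01. The study chose these lists on these libraries, so neither the count nor the median is independent evidence. Yl*ERT1* (YALI0E03410), similar to a *Saccharomyces cerevisiae* regulator, was the only member at an unadjusted p under 0.05. It stood at 37.1, 50.2 and 28.1 CPM in Yl*ngs1*Δ and at 24.9, 26.2 and 15.1 CPM in Yl*rep1*Δ, with a difference of 0.80 (SE 0.29, unadjusted p = 0.031, adjusted p = 0.9997). Yl*WOR4* (YALI0F19822), a zinc finger factor weakly similar to *C. albicans* Wor4, had the largest difference of the list. Its levels were 63.6, 66.7 and 47.4 CPM in Yl*ngs1*Δ and 40.0, 38.2 and 8.62 CPM in Yl*rep1*Δ, against 0.880 to 1.66 CPM in wild-type cells (difference 1.03, interval -0.20 to 2.26). These were the 2 of 14 members whose groups did not overlap, against 3.06% of all genes with Yl*ngs1*Δ higher, and the choice of the list does not make the share independent evidence. Yl*MOT3* (YALI0E29271), related to a *S. cerevisiae* repressor, stood at 29.2, 17.2 and 13.2 CPM against 9.41, 16.7 and 4.22 CPM, so its groups overlapped. Yl*NRG1* (YALI0C12364), similar to a *C. albicans* repressor, was the member below 0, at -0.22 (interval -1.13 to 0.69).

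Yl*rep1*Δ replicate 3 was the lowest of the 6 libraries for 10 of these 14 genes, against 1447 of all 6016 genes tested. Without it the median fell to 0.25 and 10 of 14 were above 0. Leaving out 1 of the other libraries gave medians between 0.13 (Yl*ngs1*Δ replicate 1) and 0.69 (Yl*rep1*Δ replicate 2). For the 9 factors that the study lists as higher in Yl*ngs1*Δ alone, 9 of 9 had a fitted difference above 0 (51.1% of all genes). The choice of the list favours this, and Yl*rep1*Δ replicate 3 was lowest for 8 of the 9. Their median was 0.57, and 0.23 without that library. None of the 9 passed an unadjusted p of 0.05. The largest difference was of an Uls1-like translocase gene (YALI0F30261), at 79.6, 160.8 and 153.1 CPM against 135.5, 64.2 and 37.5 CPM (0.73, interval -0.42 to 1.88), and the smallest was of Yl*MSN4* (YALI0C13750), a zinc finger factor, at 0.20. The groups did not overlap for 3 of the 9, against 3.06% of all genes in that direction, in a list whose choice favours it. These were YALI0B18942 with a DNA-binding domain, the Ctf1-like YALI0D12628 and the Eco1-like YALI0E12023, whose unadjusted p values were 0.11, 0.11 and 0.060.

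Factors on the other lists overlapped between the strains. Of the 3 that the study lists as higher in Yl*rep1*Δ alone, Yl*PHD1* (YALI0B19602), similar to *C. albicans* Efg1, differed by 0.19 and *YAS1* (YALI0C02387), essential for the response to alkanes, by -0.33, with intervals of -1.15 to 1.53 and -1.79 to 1.14. Of the 4 listed as lower in the mutants, 2 passed the filter on low counts. The Gat1-like YALI0D20482, similar to an activator of nitrogen catabolic genes, stood at 2.74, 6.28 and 6.09 CPM in Yl*ngs1*Δ and at 6.12, 5.60 and 19.7 CPM in Yl*rep1*Δ (-1.06, interval -2.42 to 0.30). Yl*OFI1* (YALI0E31845) differed by -0.61, and in both genes Yl*rep1*Δ replicate 3 was the highest library.

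Cell wall and adhesin genes showed the same arrangement. Of 15 that the study lists as higher in both mutants, 14 had a fitted difference above 0, against 51.1% of all genes. The study chose this list on these libraries, so the count is not independent evidence. Of the 15, 0 were called and 0 passed an unadjusted p of 0.05. Their median was 0.43, and 0.14 without Yl*rep1*Δ replicate 3. That library was the lowest for 14 of the 15, against 1447 of all 6016 genes. Leaving out 1 of the other libraries gave medians between 0.24 (Yl*ngs1*Δ replicate 1) and 0.86 (Yl*rep1*Δ replicate 2). The Tir3-like mannoprotein gene YALI0F07535 stood at 386.4, 431.3 and 243.9 CPM in Yl*ngs1*Δ and at 212.5, 198.4 and 35.4 CPM in Yl*rep1*Δ, against 2.30 to 3.54 CPM in wild-type cells. Its groups did not overlap (difference 1.25, interval -0.20 to 2.70, unadjusted p = 0.081, adjusted p = 0.9997 in edgeR), and without Yl*rep1*Δ replicate 3 the difference was 0.78. The Flo11-like gene YALI0A00176 was the other member with no overlap, at 100.9, 75.0 and 63.6 CPM against 48.6, 55.8 and 12.2 CPM (1.04, interval -0.19 to 2.26). These were 2 of 15 members, against 3.06% of all genes with Yl*ngs1*Δ higher, in a list chosen on these libraries. *S. cerevisiae* Flo11 is a flocculin of the cell surface. A further Flo11-like gene, YALI0E18722, stood at 917.0, 647.3 and 367.0 CPM against 403.3, 562.4 and 147.8 CPM, so that its groups overlapped. The Dcw1-like YALI0A20438 had the lowest difference of the list, -0.09.

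Of 13 cell wall genes that the study lists as higher in Yl*ngs1*Δ alone, 12 were tested. All 12 had a fitted difference above 0, against 51.1% of all genes, which the choice of the list on these libraries favours. Against 1447 of all 6016 genes, Yl*rep1*Δ replicate 3 was the lowest library for each of the 12. Their median was 0.32, and 0.11 without that library. The Yps3-like YALI0F10549, similar to aspartic proteases of the *S. cerevisiae* yapsin family, was the member with an unadjusted p under 0.05 and with no overlap. It stood at 3.10, 2.45 and 1.42 CPM in Yl*ngs1*Δ and at 1.08, 1.34 and 0.682 CPM in Yl*rep1*Δ (1.15, unadjusted p = 0.032, adjusted p = 0.9997 in edgeR). With Yl*ngs1*Δ higher, 0.632% of all genes passed that unadjusted p and 3.06% did not overlap. The smallest difference was 0.08, of the Yps3-like YALI0D14300. Of 12 listed as lower in the mutants, 10 were tested and 9 were below 0, against 2940 of all 6016 genes. The median of the 10 was -0.58, and -0.13 without Yl*rep1*Δ replicate 3. Leaving out 1 of the other libraries gave medians between -1.26 (Yl*ngs1*Δ replicate 3) and -0.40 (Yl*ngs1*Δ replicate 1). The study chose this list on these libraries as well. YALI0F24255, a putative GPI-anchored wall protein, stood at 8.54, 20.5 and 20.002 CPM against 29.1, 20.5 and 76.6 CPM (-1.37, unadjusted p = 0.043, adjusted p = 0.9997 in edgeR). YALI0A21373, Cwp1-like, stood at 10.5, 8.19 and 9.85 CPM against 12.4, 10.7 and 24.4 CPM (-0.73). For both, the groups did not overlap by a narrow margin. With Yl*ngs1*Δ lower, 2.56% of all genes did not overlap and 0.549% passed an unadjusted p of 0.05. YALI0D27214 had the highest difference of the list, 0.06.

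**Figure D4:**
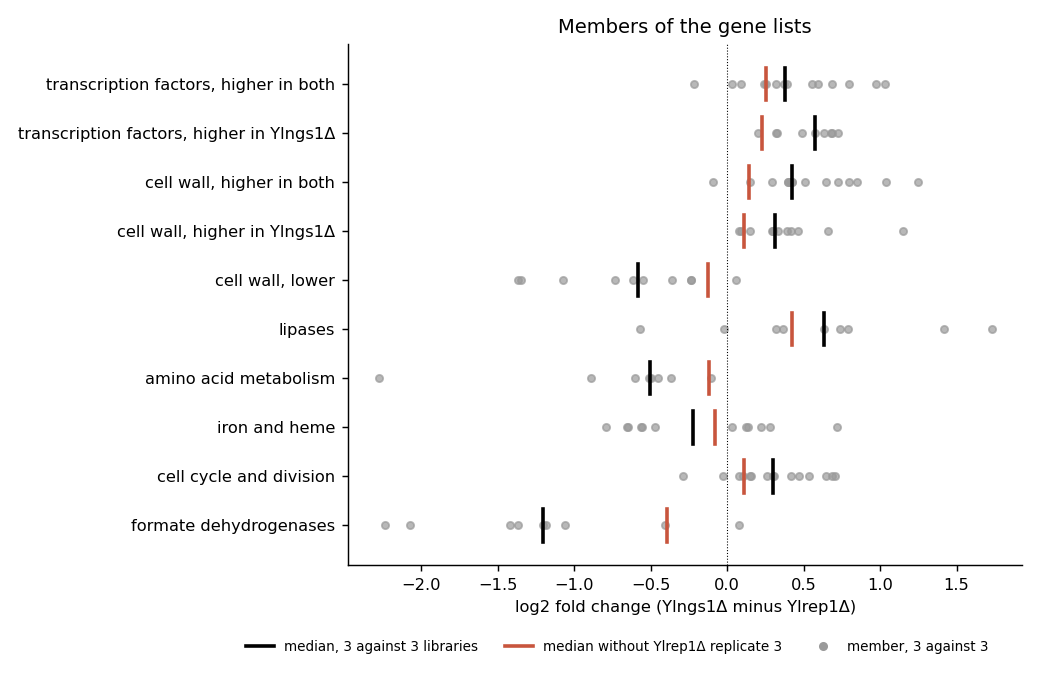
Fitted difference (x axis, log2 fold change, Yl*ngs1*Δ minus Yl*rep1*Δ) of each tested member of 10 gene lists (y axis). Black lines are medians with all 6 libraries and red lines medians without Yl*rep1*Δ replicate 3. In these 10 lists each red line lies nearer 0 than its black line, as for cell wall genes higher in both (0.14 and 0.43). Lists not drawn went both ways. Without that library the median of transport genes went from 0.19 to 0.07, but that of stress genes from 0.13 to 0.14. For the 3 factors listed as higher in Yl*rep1*Δ alone it went from -0.10 to -0.23. Other libraries left out also moved medians. Without Yl*ngs1*Δ replicate 3, that of stress genes was -0.24 and that of cell wall genes listed as lower was -1.26.

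Several of the genes with the largest negative differences at an unadjusted p under 0.05 encode metabolic enzymes or transporters, and 11 passed the count minimum of 20 in the higher strain. For 11 of the 11, Yl*rep1*Δ replicate 3 was the highest of the 6 libraries, against 1425 of all 6016 genes tested. The 3 Yl*ngs1*Δ libraries lay below all wild-type libraries with 4NAG for 11 of the 11. For 9 of the 11, the 3 Yl*rep1*Δ libraries also lay below all of these wild-type libraries. The median difference was -1.37, and -0.73 without Yl*rep1*Δ replicate 3, when 1 of the 11 kept an unadjusted p under 0.05. Without Yl*rep1*Δ replicate 1, 11 of 11 kept it. The background for such genes, lower by 2-fold at an unadjusted p, was 0.216%, and because they were chosen by this contrast the counts are descriptions only.

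A Ctt1-like gene (YALI0E34265), similar to the cytosolic catalase of *S. cerevisiae* that removes hydrogen peroxide, had the largest negative difference. It stood at 9.47, 6.99 and 31.8 CPM in Yl*ngs1*Δ and at 14.0, 55.6 and 211.2 CPM in Yl*rep1*Δ, against 319.2 to 400.3 CPM in wild-type cells. The groups overlapped (difference -2.55, SE 1.01, unadjusted p = 0.040, adjusted p = 0.9997 in edgeR), and without Yl*rep1*Δ replicate 3 it was -1.13. A Cha1-like deaminase gene (YALI0B16214), similar to the *S. cerevisiae* enzyme that degrades serine and threonine, stood at 12.8, 21.5 and 10.8 CPM against 19.1, 44.6 and 154.4 CPM. Yl*rep1*Δ replicate 3 was here above the wild-type range of 72.0 to 80.1 CPM (difference -2.28, unadjusted p = 0.018). Yl*OAR1* (YALI0F29975), similar to a 3-oxoacyl reductase gene of *C. albicans*, stood at 3.47, 3.35 and 6.95 CPM against 3.97, 14.3 and 44.4 CPM (-2.19, unadjusted p = 0.031).

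Transport genes made up several of the others. YALI0C12100, described as an amino acid transporter, stood at 1.03, 1.14 and 0.369 CPM in Yl*ngs1*Δ and at 2.38, 2.43 and 2.98 CPM in Yl*rep1*Δ. Its groups did not overlap and its libraries were even within Yl*rep1*Δ (difference -1.60, interval -2.65 to -0.55, unadjusted p = 0.0087, adjusted p = 0.9997 in edgeR), and without Yl*rep1*Δ replicate 3 the difference was -1.49. Yl*GAP1* (YALI0C17237), the general amino acid permease, stood at 71.4, 67.0 and 99.5 CPM against 88.6, 123.3 and 320.8 CPM (-1.17). Yl*SSU1* (YALI0E24167), a sulfite pump by similarity, stood at 16.3, 16.6 and 17.8 CPM against 18.3, 30.5 and 60.9 CPM (-1.12). YALI0F24277, annotated with copper transport, differed by -1.07, and its identifier follows that of the wall protein gene YALI0F24255 above. Yl*BIO2* (YALI0D15400), a biotin synthase by similarity, differed by -1.11, and a dihydroxyacetone kinase-like gene (YALI0F01606) by -1.24.

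Formate dehydrogenase genes, which oxidise formate to carbon dioxide, were drawn together after their values were seen, because 1 of the 11, YALI0E14256, belongs to them. It stood at 1.81, 1.26 and 1.48 CPM in Yl*ngs1*Δ and at 1.76, 4.58 and 15.3 CPM in Yl*rep1*Δ (-2.24, unadjusted p = 0.021, adjusted p = 0.9997 in edgeR). The study's tables describe 9 such genes, all in its lists of genes lower in a mutant. Of these 9, 8 had a fitted difference below 0 (2940 of all 6016 genes) and 7 at least 2-fold below (29 of all 6016). The choice of the family after its values were seen favours these counts. The median of the 9 was -1.21, and -0.39 without Yl*rep1*Δ replicate 3. Leaving out 1 of the other libraries gave medians between -1.74 (Yl*ngs1*Δ replicate 3) and -0.91 (Yl*ngs1*Δ replicate 1). YALI0E15840 had the smallest unadjusted p of all genes tested, 0.0036, at 0.155, 0.120 and 0.246 CPM against 0.680, 0.811 and 0.744 CPM (-2.07, interval -3.22 to -0.93). Its mean count was under the minimum of 20, and unlike most of the family its value without Yl*rep1*Δ replicate 3 was -2.08. The highest member, YALI0F15983, differed by 0.08. Reads may be shared between members of a family with near-identical sequence, so the values of single members are uncertain.

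The 12 genes with the largest positive differences at an unadjusted p under 0.05 and a mean count of at least 20 were chosen by this contrast, so their values are descriptions only. Their median difference was 1.23, and 1.02 without Yl*rep1*Δ replicate 3, the lowest library for 8 of the 12 (1447 of all 6016 genes). Without that library 1 of the 12 kept an unadjusted p under 0.05 in edgeR, and without Yl*rep1*Δ replicate 1, 8 of 12 kept it. The groups did not overlap for 9 of the 12, which the choice by p favours (3.06% of all genes in that direction). The Lipase 1 precursor gene (YALI0E10659), which encodes a triacylglycerol lipase, stood at 5.17, 5.38 and 3.26 CPM in Yl*ngs1*Δ and at 1.76, 1.78 and 0.558 CPM in Yl*rep1*Δ, against 0.155 to 0.804 CPM in wild-type cells. Its groups did not overlap (difference 1.73, SE 0.47, unadjusted p = 0.0077, adjusted p = 0.9997 in edgeR), and the difference stayed between 1.37 and 1.98 when any library was left out. YALI0A00374, weakly similar to the wall protein gene YALI0E01210, stood at 8.43, 5.44 and 2.46 CPM against 2.15, 2.15 and 0.807 CPM (1.66, unadjusted p = 0.020). An Alk2-like gene (YALI0A20130), similar to an alkane-inducible cytochrome of *C. albicans*, stood at 2.69, 1.61 and 2.09 CPM against 1.19, 1.26 and 0.558 CPM (1.07). A gene weakly similar to YJR124C of *S. cerevisiae* (YALI0C08228) differed by 1.14. The remaining 8 were YALI0B16170, YALI0D00671, YALI0F14091, YALI0B21846, YALI0F08085, YALI0D02519 and YALI0B20614, which the sources leave without a gene name and which differed by 1.01 to 1.75, and the Yps3-like YALI0F10549 above.

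**Figure D5:**
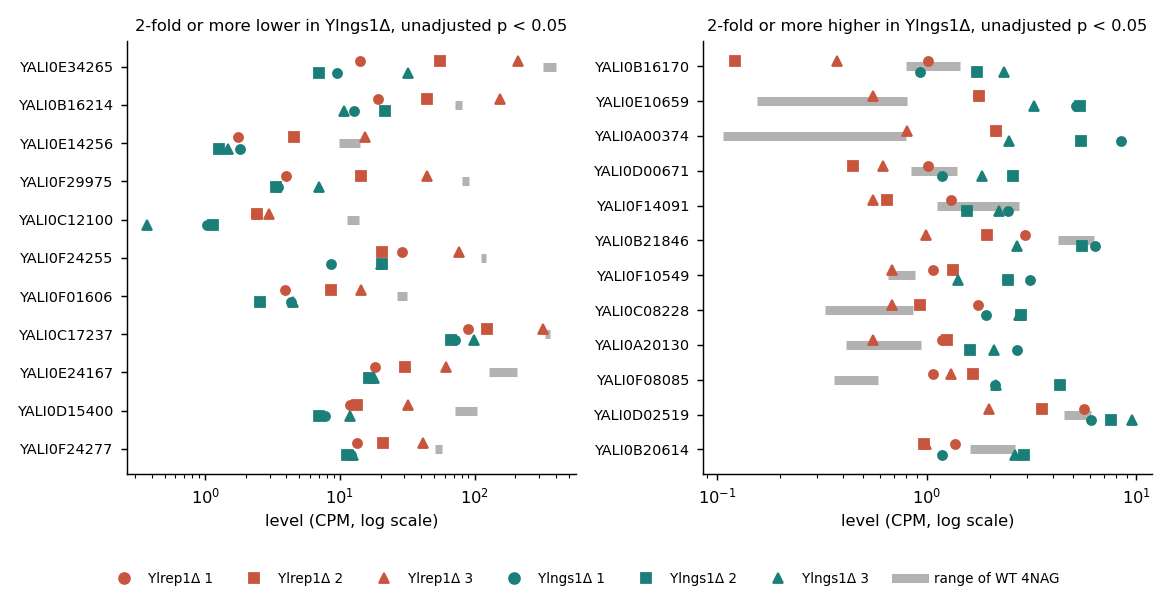
Level (x axis, CPM, log scale) in each of the 6 mutant libraries of the 11 genes lower and the 12 genes higher in Yl*ngs1*Δ at an unadjusted p under 0.05 and 2-fold (y axis). Symbols mark the replicate and grey bars the range of wild-type libraries with 4NAG. On the left the red triangle, Yl*rep1*Δ replicate 3, is the highest mutant library in 11 of 11 rows, against 1425 of all 6016 genes.

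At smaller folds, the smallest unadjusted p values among better counted genes fell on genes with little spread within a strain. A Srb8-like gene (YALI0F11341), similar to a Mediator subunit of *S. cerevisiae*, stood at 20.9, 29.9 and 28.1 CPM in Yl*ngs1*Δ and at 15.1, 17.4 and 15.7 CPM in Yl*rep1*Δ (0.71, interval 0.25 to 1.16, unadjusted p = 0.0080). YALI0F11319, whose identifier is next to it in the files, stood at 37.5, 48.8 and 41.7 CPM against 28.9, 31.3 and 21.2 CPM (0.65). In the other direction, a Tna1-like gene (YALI0F21109), similar to a nicotinic acid transporter, stood at 5.90, 5.26 and 5.91 CPM against 7.88, 8.76 and 13.1 CPM (-0.80), and YALI0B17886 at 7.24, 9.80 and 6.52 CPM against 13.8, 11.4 and 13.0 CPM (-0.70). The groups did not overlap for any of these 4, which the choice by p favours. Of all genes, 3.06% did not overlap with Yl*ngs1*Δ higher and 2.56% with it lower. Each of the 4 kept an adjusted p of 0.9997 in edgeR.

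Further groups were drawn from the gene descriptions in the study's tables, which cover only genes the study found changed against the wild-type libraries shared by both mutants. Of 9 lipase and phospholipase genes tested, 7 were above 0 (median 0.63, and 0.42 without Yl*rep1*Δ replicate 3) and 2 passed an unadjusted p of 0.05 (0.632% of all genes in that direction), the Lipase 1 precursor gene and YALI0E00286. The latter, annotated as a LIP7 or LIP8 lipase, stood at 3.62, 3.53 and 2.58 CPM against 1.64, 2.19 and 1.99 CPM (0.74). The lowest lipase, the lip2-like YALI0F11429, differed by -0.57. *LIP8* itself (YALI0B09361) stood at 196.1, 169.4 and 103.8 CPM against 128.2, 128.2 and 14.5 CPM (0.79, interval -0.89 to 2.47). All 8 genes of amino acid metabolism were below 0 (median -0.50), against 2940 of all 6016 genes. For 8 of the 8 the highest library was Yl*rep1*Δ replicate 3, against 1425 of all 6016 genes. Without it the median was -0.12. The highest of them was YALI0E07381, acetylornithine deacetylase-like, at -0.10.

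Genes of iron and heme were split, with 6 of 12 above 0 and a median of -0.22. The Hem1-like YALI0E17545, similar to the first enzyme of heme synthesis, stood at 5.12, 5.86 and 5.97 CPM against 8.84, 6.53 and 14.0 CPM (-0.79, unadjusted p = 0.038, adjusted p = 0.9997 in edgeR), and the Arn2-like siderophore transporter gene YALI0D05401 differed by 0.72. Of 9 stress genes, 5 were above 0 (median 0.13, and 0.14 without Yl*rep1*Δ replicate 3), from the Ctt1-like gene to a thioredoxin-like gene (YALI0E09427, 0.73). Leaving out 1 of the other libraries gave stress medians between -0.24 (Yl*ngs1*Δ replicate 3) and 0.32 (Yl*rep1*Δ replicate 1). Of 15 cell cycle genes, 13 were above 0, against 51.1% of all genes (median 0.30, and 0.11 without Yl*rep1*Δ replicate 3). The 15 ran from the Hos3-like YALI0A20834 at -0.29 to the Met30-like YALI0B09977 at 0.70. Among 97 transport genes, 63 were above 0 (median 0.19), against 51.1% of all genes. At an unadjusted p of 0.05, 2 above and 6 below 0 passed, against 0.632% and 0.549% of all genes. A Hol1-like transporter gene (YALI0F03795) was the other one above, at 201.5, 272.0 and 226.2 CPM against 162.1, 164.2 and 76.9 CPM (0.79), and an Aqr1-like gene (YALI0E10483) differed by -0.91. None of 9 secreted protease genes was called (median -0.24), from the Yps3-like YALI0A13013 at -1.07 to YALI0F10549. Leaving out 1 library gave protease medians between -0.99 (Yl*ngs1*Δ replicate 3) and 0.16 (Yl*ngs1*Δ replicate 2).

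The groups overlapped widely for *GPR1* (YALI0C23298), the glyoxylate pathway regulator, at 117.3, 61.9 and 30.1 CPM in Yl*ngs1*Δ and at 53.3, 120.4 and 7.76 CPM in Yl*rep1*Δ (0.20, interval -1.88 to 2.28). *PCK1* (YALI0C16995), phosphoenolpyruvate carboxykinase, stood at 3665, 4450 and 3307 CPM in Yl*ngs1*Δ and at 3196, 2998 and 3440 CPM in Yl*rep1*Δ, above the wild-type range of 999.5 to 1151 CPM in both. The difference was 0.24 (interval -0.18 to 0.67). Yl*PDC1* (YALI0D10131), pyruvate decarboxylase, stood at 187.6, 213.6 and 418.0 CPM against 252.3, 346.4 and 1065 CPM (-1.03, interval -2.41 to 0.36), and at -0.14 without Yl*rep1*Δ replicate 3. All 4 genes taken as alkane cytochromes that the study describes were above 0, against 51.1% of all genes. The study's description of YALI0B06248 is of a protein kinase similar to Alk1, and does not name a cytochrome. The median of the 4 was 0.58, and 0.22 without Yl*rep1*Δ replicate 3, the lowest library for 4 of the 4 (1447 of all 6016 genes). Leaving out 1 of the other libraries gave medians between 0.24 (Yl*ngs1*Δ replicate 1) and 1.06 (Yl*rep1*Δ replicate 2). The 4 genes ran from *ALK1* (YALI0E25982) at 0.23 through *ALK3* (YALI0E23474) at 0.33 and the Alk1-like YALI0B06248 at 0.84 (interval -0.61 to 2.29) to the Alk2-like YALI0A20130 above. The latter was the member with no overlap, against 3.06% of all genes with Yl*ngs1*Δ higher. A sterol acyltransferase-like gene (YALI0D07986) differed by 0.40 and a glucose transporter-like gene (YALI0E23287) by -0.04. *YHT1* (YALI0C06424), similar to the *S. cerevisiae* glucose transporter or regulatory protein Snf3, differed by 0.21.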

How the data were processed

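RNA-Seq was measured in 12 samples, grouped by their labels. The authors deposited counts (whole numbers per gene) beside FPKM, and all 12 count columns were mapped. Cufflinks 2.2.1, TopHat2 2.1.1 and, for this yeast, a mouse build stand in the submitters' notes. Counter, annotation and strand handling: not given in the sources used here, and each could alter counts. Genes absent from a table were set to 0 (18 in the mutant tables, at most 9 counts). The deposited FPKM values were used only to compare levels between genes.

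From the counts, 3 against 3 libraries were compared by the quasi-likelihood test of edgeR 4.0.16 (R 4.3.3) after filterByExpr and TMM, with Benjamini-Hochberg adjusted p under 0.05 and 2-fold as thresholds, and tested on simulated data. Intervals are 95% from the fit. Distances between libraries use log2 CPM with a prior count of 2. Alternatives used DESeq2 1.42.0, limma 3.58.1, other filters and size factors, more libraries, a replicate block and leaving out libraries. Omitting replicate 3 of both strains was added after seeing the data. Figures were drawn in Python 3.11.15.

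Members and lists were chosen with earlier results of these data known. Named genes were the deleted, Ndt80 family and GlcNAc genes; the 12 largest differences each way at an unadjusted p under 0.05, 2-fold and a mean count of 20; the extremes of each list and its members at an unadjusted p under 0.05; and the 3 smallest p values each way. Genes called under an alternative would also be named, and there were none. Lists by description needed 5 tested members. Names and roles come from the paper and its tables. Further lists of carbon and lipid genes were used only where those tables describe a member.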

Additional observations from a re-analysis of the deposited data

Results flagged for a closer look

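For 2 of the 6016 genes tested, all 3 Yl*ngs1*Δ libraries lay below and all 3 Yl*rep1*Δ libraries above every wild-type library with 4NAG by level, and 0 genes showed the opposite arrangement. Neither gene passed correction, and the margins were small. Yl*rep1*Δ libraries of YALI0D15818 lay between 23.6 and 23.8 CPM against a wild-type maximum of 22.4 CPM, and the lowest Yl*rep1*Δ library of YALI0F09383 was at 46.4 CPM against 46.0 CPM. The difference of the strains from wild type was not tested. YALI0D15818 differed by -0.42 (log2) between the mutants, with an unadjusted p of 0.038 and an adjusted p of 0.9997 in edgeR, and YALI0F09383 differed by -0.34, with an unadjusted p of 0.080 and the same adjusted p. Neither is described in the study's tables.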

How the results depend on the processing

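The count of genes called was 0 in each direction under each of the 15 alternatives, and 0 with no fold threshold. Called without adjustment it was 15 higher and 13 lower. Those 15 and 13 were 103 and 21 with limma's sample quality weights, 8 and 7 without replicate 3 of both strains, and between 5 and 150 higher and 2 and 29 lower when a replicate was left out. Leaving out Yl*rep1*Δ replicate 3 gave 5 and 2, the lowest, and leaving out its replicate 1 gave 150 and 29, the highest. Its replicate 2 left out gave 25 and 25, and replicate 2 of Yl*ngs1*Δ gave 8 and 5. The lower count was 21 with no filter on low counts and 26 with all 12 libraries in a single fit. The cause was not tested. Of the 1504 genes with the lowest levels, 50.5% had an interval within 2-fold, and the part of depth was not tested.

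With the replicate number as a block, 17 and 13 genes passed the unadjusted threshold and 0 were called. Deviations of same-numbered libraries correlated between -0.61 and 0.20, and 1 of 6 libraries correlated best with its own number. In the labels a pairing rests on the number alone, and whether same-numbered samples shared handling was not tested.

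Of 81 named genes, 66 kept their sign under all 15 alternatives. Leaving out a replicate gave ranges of -0.38 to 0.33 for YALI0A20438, -0.58 to 0.65 for YALI0B19602, -0.37 to 0.98 for YALI0B21582, -1.23 to 0.17 for YALI0C02387, -0.47 to 0.92 for YALI0C06424, -0.59 to 0.18 for YALI0C12364, -0.15 to 0.56 for YALI0C13750, -0.70 to 0.25 for YALI0C14344, -0.21 to 0.25 for YALI0D14300, -0.56 to 0.49 for YALI0D27214, -0.43 to 0.46 for YALI0E07381, -0.033 to 0.18 for YALI0E20207, -0.47 to 0.21 for YALI0E23287, -0.38 to 0.69 for YALI0E25982 and -0.20 to 0.33 for YALI0F15983. With limma's weights the sign changed for YALI0B19602 (-0.34), YALI0B21582 (-0.075), YALI0C06424 (-0.28), YALI0C13750 (-0.052), YALI0C14344 (0.0061), YALI0D14300 (-0.032), YALI0E07381 (0.31) and YALI0E25982 (-0.29). Without replicate 3 of both strains it changed for YALI0D14300 (-0.46), YALI0D27214 (-0.47), YALI0E07381 (0.14) and YALI0E23287 (0.22), and with the block for YALI0D27214 (-0.15).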
